A study of Mus musculus with 4 samples.

Results

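The genes described here are those of the NRF2 pathway and of the antioxidant enzymes in NF639 mouse mammary tumour cells: NRF2 itself, its regulators, its target genes, and the genes of the glutathione, thioredoxin, peroxiredoxin, NADPH and metallothionein systems. The list named 44 genes. A gene was read from the brightest probe set that the platform annotation assigns to that gene alone, which gave values for 40 of the 44, out of 12393 genes with such a probe set on the array. Expression was measured on Affymetrix Mouse 430A 2.0 arrays, 1 array per culture, in an NF639 pool that resists epigallocatechin gallate (2 arrays) and in the original NF639 population (2 arrays). Epigallocatechin gallate (EGCG) is a catechin polyphenol abundant in green tea. NF639 is an established line known to derive from a mammary tumour of a mouse carrying the ErbB2 (neu) oncogene. The resistant cells were a pool and not a clone. The sources used here do not give how they were selected, for how long, or whether EGCG was present at harvest. The study's design text places the RNA in 2 separate experiments, and no label says whether a replicate number marks an experiment.

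NRF2, encoded by Nfe2l2, is a transcription factor that KEAP1 normally holds in the cytoplasm and hands to a CUL3 ubiquitin ligase for degradation. When electrophiles or oxidants modify KEAP1, NRF2 accumulates, pairs with small MAF proteins and binds antioxidant response elements (AREs) in the promoters and enhancers of its targets. These targets make glutathione, reduce thioredoxin, supply NADPH and conjugate or export electrophiles. EGCG oxidises in culture medium and yields hydrogen peroxide, and it is known as an activator of NRF2 in several cell types.

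Letters of the ARE core stood near the start of some members. Those of some of these members are shown as examples, because the ARE is the sequence through which NRF2 acts. The core TGACNNNGC was searched on both strands of RefSeq promoters of GRCm38.p6, each running from 250 bases before to 50 bases after a transcript's start. Of the 44 genes, 38 had a promoter in that table, and 13 of the 38 (34.2%) held the core in at least 1 promoter, against 14.0% of 27025 genes in the table. The list was chosen to hold NRF2 target genes, and the table holds genes expressed here or not, so this contrast is no test. The stretches run 5′ to 3′ on the gene's strand, with the core in capitals and 10 bases on either side in lower case. A core on the other strand reads GCNNNGTCA.
Nfe2l2, chr2:75704885-75704913, minus strand, 240 bases before the start: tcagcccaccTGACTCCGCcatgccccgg
Ugdh, chr5:65435956-65435984, minus strand, 132 bases before the start: gcggagcccgTGACTTAGCtggagctgat
Ugdh, chr5:65435918-65435946, minus strand, 94 bases before the start, core on the other strand: tcctcaagggGCGTGGTCAtacagttcgg
Gclm, chr3:122245413-122245441, plus strand, 134 bases before the start, core on the other strand: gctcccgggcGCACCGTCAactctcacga
Txnrd1, chr10:82859104-82859132, plus strand, 92 bases before the start of 1 of its 3 promoters, core on the other strand: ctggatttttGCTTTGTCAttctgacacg
Mgst1, chr6:138140461-138140489, plus strand, 56 bases before the start of 1 of its 2 promoters, core on the other strand: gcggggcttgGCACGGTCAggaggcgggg
Me1, chr9:86695902-86695930, minus strand, 6 bases before the start of 1 of its 2 promoters: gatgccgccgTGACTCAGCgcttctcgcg
Mt2, chr8:94172529-94172557, plus strand, 79 bases before the start: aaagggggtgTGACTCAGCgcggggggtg
Prdx1, Srxn1, Gstm5, Sod1, Pgd and G6pdx held a match each as well. The cores of Me1, Mt2 and Prdx1 overlap the AP-1 motif TGANTCA. A match of letters is not a binding site, and a window without one says nothing about the factor, whose best-known elements often lie further upstream.

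No member passed the test in the resistant pool. Of the 40 genes with values, 38 were bright enough to be tested, and 0 of the 38 had an adjusted p under 0.05, where 0.169% of the 13576 probe sets tested did, 0.0589% higher and 0.11% lower (limma, Benjamini-Hochberg adjustment over all of them; the lowest adjusted p of a member was 0.448). At an unadjusted p under 0.05 there were 2 members, the mitochondrial thioredoxin gene Txn2 (higher) and the microsomal glutathione transferase gene Mgst3 (lower), which is 5.26% of the members, against 7.35% of all probe sets (3.43% higher and 3.92% lower). Fold changes are differences of log2(signal + 3) between group means, resistant minus original. Over the 38 tested members the median was 0.07, with a range from -0.65 to 0.66, and over all probe sets tested it was 0.00. The signs were mixed, with 21 members above 0 and 17 below. The median moved with the choice of arrays and of genes: over all 40 genes with values it was 0.05, and without the array original 1 it was -0.09. It was -0.08 over the 31 genes that have a plain probe set of their own. That value leaves out the genes without one, so it is not a change of probe set alone.

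These data set a limit on the size of the differences. The 95% interval of the fold change lay within 2-fold in both directions for 33 of the 38 members (76.3% of all probe sets did so), with a median interval of ± 0.44 on the log2 scale. The 5 genes whose intervals reached past 2-fold were Hmox1, Idh1, Mgst1, Mgst3 and Txn2. The groups did not overlap in 13 of 38 members (34.2%), 7 higher and 6 lower, against 36.0% of all probe sets (17.7% higher and 18.3% lower). In 29 of the 38 members the 2 arrays of at least 1 group lay further apart than the 2 group means, as they did in 75.9% of all probe sets.

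**Figure D1:**
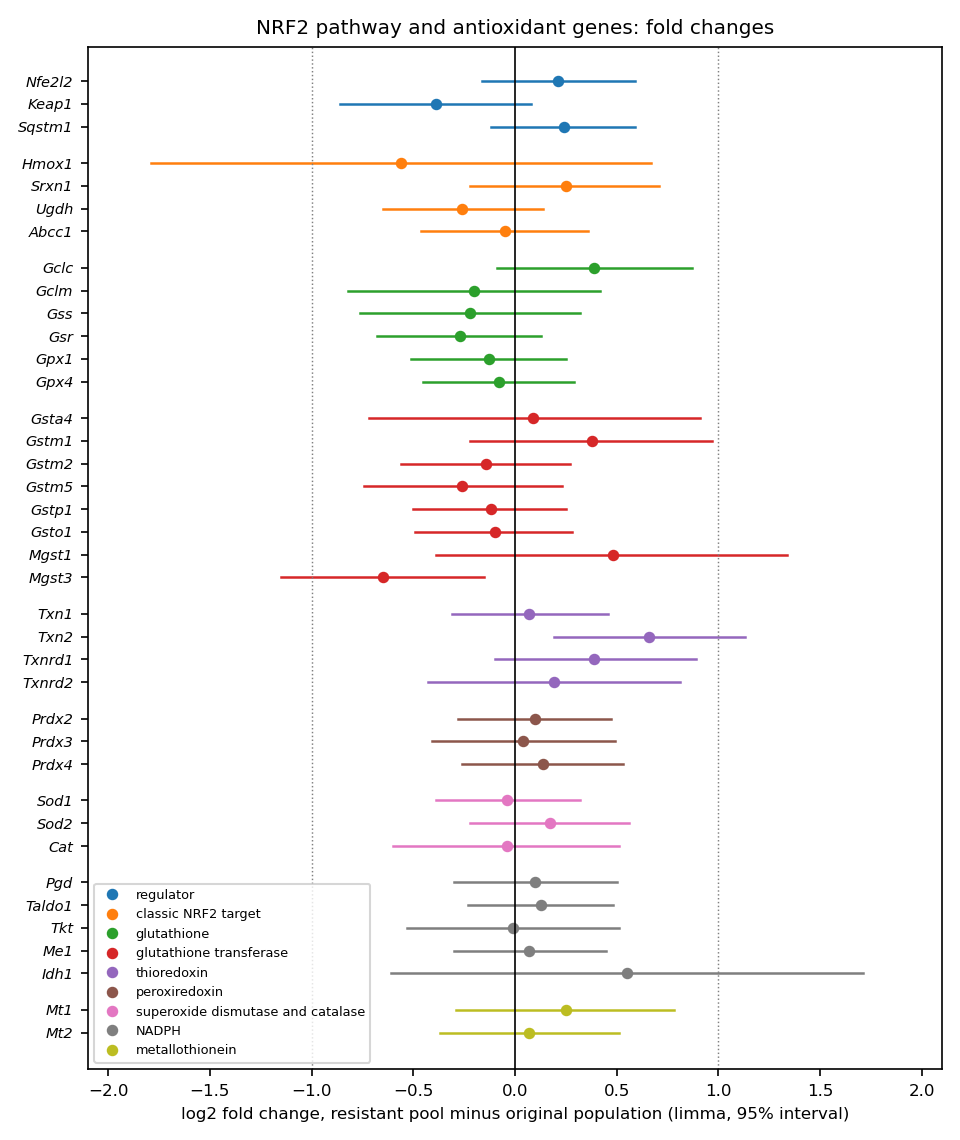
Log2 fold change of each of the 38 tested members, resistant minus original, with its 95% interval from limma (n = 2 arrays per group), coloured by role; dotted lines mark 2-fold. Most intervals include 0, and those of Txn2 (0.19 to 1.13) and Mgst3 (-1.15 to -0.15) do not, although neither gene passed after adjustment.

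Some facts of the arrays touch these results. The hybridisation controls spiked in as BioB, BioC and BioDn (7 probe sets) were brighter on the array numbered 2, by 1.48 to 2.29 times in the resistant pool and 1.39 to 2.11 times in the original population. Between arrays of the same number, resistant over original, they differed by 0.938 to 1.01 times for number 1 and 0.991 to 1.14 times for number 2. Results are therefore also given within each number and with the number as a block. The array original 2 stood apart in an 18S ribosomal RNA probe set, with 4005.3 against 346.7 to 624.3 on the other 3 arrays, and in the median of the spiked poly-A controls, with 219.7 against 110.9 to 120.8. The deposited arrays share 1 trimmed mean, so a difference in total RNA per cell would not be visible. In such bulk samples fewer cells of a type and less RNA per cell cannot be told apart. Of 10 epithelial markers only Erbb2 was bright enough to be tested; the probe sets of Epcam, Cdh1, Krt8 and Krt18, which define epithelium, were below that limit on average. The summed signal of all 10 epithelial markers, most of it from Erbb2, was 432 to 478.4 in the resistant pool and 466.4 to 482.5 in the original population. Of 8 fibroblast markers 6 were tested, with sums of 8055 and 6073 on resistant 1 and 2 and of 7537 and 6328 on original 1 and 2. These sums hide markers that differed in opposite directions. Col3a1 (log2 fold change 1.99) and Col1a1 (0.99) were higher on both resistant arrays, Dcn (-2.15) and Col1a2 (-0.62) were lower on both, and Pdgfra (0.72) and Pdgfrb (0.44) overlapped. None of the 6 had an adjusted p under 0.05 (the lowest, of Col3a1, was 0.05 after rounding), and with the array number as a block all but Pdgfrb did. Their part in the results below was not tested. Leukocyte markers (3 of 7 tested) summed to 387.6 to 471.2 in the resistant pool and 410.4 to 500.8 in the original population, and none of 6 endothelial or 4 adipocyte markers was bright enough to be tested.

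No regulator of the pathway passed the test. Nfe2l2 had signals of 2395.4 and 2057.1 in the resistant pool, against 1817.7 and 2016.4 in the original population. Both resistant arrays were above both original ones, though resistant 2 and original 2 lay close together. The log2 fold change was 0.21 ± 0.170 (SE; adjusted p = 0.882), with a 95% interval from -0.16 to 0.59, and it was 0.40 between the arrays numbered 1 and 0.03 between those numbered 2. Keap1, which encodes the repressor, had 382.4 and 352.1 in the resistant pool, against 453.6 and 511.9 in the original population, so both resistant arrays were lower. Its fold change was -0.39 ± 0.212 (SE; adjusted p = 0.760). A second Keap1 probe set also had lower values in the resistant pool, at 139.2 and 215.4 against 251.6 and 260.9 in the original population. It gave a log2 fold change of -0.56 (limma adjusted p = 0.742). Sqstm1 encodes p62, an autophagy receptor that binds KEAP1 and is itself an NRF2 target. Its signals were 5259.6 and 5482.4 in the resistant pool and 4409.9 and 4687.7 in the original population, a log2 fold change of 0.24 ± 0.160 (SE; adjusted p = 0.839).

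The classic target genes gave no common direction. Hmox1, the heme oxygenase gene, had 437.8 and 636.3 in the resistant pool, against 348.8 and 1741.7 in the original population. The single high value was that of original 2, which was 4.99 times original 1, and the other 3 arrays lay between 348.8 and 636.3. The comparison therefore changed sign with the array number, at 0.32 for number 1 and -1.45 for number 2. Without original 1 the gene passed as lower (log2 fold change -1.72, limma adjusted p = 0.000243), but the original population is then the single high array, assumed to vary as the resistant arrays and the other probe sets do. Over the 4 ways of leaving out an array its fold change ran from -1.72 to 0.59. Srxn1, which encodes the sulfiredoxin that repairs over-oxidised peroxiredoxins, had 844.1 and 955.1 in the resistant pool and 642 and 890.7 in the original population. Its groups overlapped, and its 4 tested probe sets stood on both sides of 0, from -0.33 to 0.25. Ugdh, which makes the UDP-glucuronate used in conjugation and holds 2 ARE cores in the stretches above, had 1902.2 and 2452.1 in the resistant pool, against 2527.3 and 2636.4 in the original population. Both resistant arrays were lower (log2 fold change -0.26 ± 0.178, SE; adjusted p = 0.843). Abcc1, an exporter of glutathione conjugates, overlapped between the groups, with a fold change of -0.05. Nqo1, the quinone reductase often used as the reporter of NRF2 activity, was too dim to be tested, with signals of 26.6 and 9.3 in the resistant pool and 37.4 and 27.3 in the original population.

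In glutathione synthesis the 2 subunits of glutamate-cysteine ligase, the rate-limiting enzyme, had fold changes of opposite sign. Gclc, the catalytic subunit gene, had 962 and 1141.5 in the resistant pool, against 664.1 and 959.5 in the original population. The lowest resistant and the highest original array were almost equal. Its log2 fold change was 0.39 ± 0.216 (SE; adjusted p = 0.771), and a second probe set gave 0.48, with 597.2 and 605.6 in the resistant pool and 393.7 and 470.7 in the original population. Gclm, the modifier subunit gene, had 1152.5 and 1483 in the resistant pool, against 1077.4 and 2096.3 in the original population. As for Hmox1, the highest value was that of original 2, at 1.95 times original 1, and the fold change of -0.20 was 0.10 for number 1 and -0.50 for number 2. Gsr, which reduces oxidised glutathione, was lower on both resistant arrays, at 645.4 and 612.2 against 776.6 and 744.5 in the original population. Its arrays lay close within each group, yet the log2 fold change of -0.27 ± 0.184 (SE) did not pass (adjusted p = 0.840), and a second probe set gave -0.07. Gss, Gpx1 and Gpx4, which encode glutathione synthetase and the peroxidases of hydrogen peroxide and of lipid peroxides, overlapped between the groups, with fold changes from -0.22 to -0.08. A second Gpx4 probe set gave 0.08.

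Among the glutathione transferases, which attach glutathione to electrophiles, Mgst3 had the most negative fold change of all 38 members. Its signals were 600.4 and 814.1 in the resistant pool, against 932.3 and 1293 in the original population. Both resistant arrays were lower, and the difference was nearly the same for both numbers, at -0.63 and -0.67. The log2 fold change was -0.65 ± 0.225 (SE; adjusted p = 0.527), and it was -0.41 without original 2 and -0.43 without resistant 1. With the array number as a block it passed (adjusted p = 0.00942), a fit in which 3 of the 38 members (7.89%) passed, 2 higher and 1 lower. Of all probe sets 5.23% passed in it, 2.23% higher and 3.0% lower. A second Mgst3 probe set was too dim to be tested, at 35 and 23.5 in the resistant pool and 3.4 and 27.2 in the original population. Mgst1, of the same membrane-bound family, was set apart by 1 array: 1037.7 on resistant 1 and 380.8 on resistant 2, against 545 and 373.7 in the original population. Its fold change was 0.92 for number 1 and 0.03 for number 2.

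The cytosolic transferases were mostly close. Gsta4, which conjugates aldehydes of lipid peroxidation, had 2044.7 and 2080.4 in the resistant pool, against 1145.8 and 3254.1 in the original population. The resistant arrays were nearly equal and lay between the original ones, which differed 2.84 times. Gstm1 had 1071.4 and 660.3 in the resistant pool and 791.7 and 528.4 in the original population. Array 1 was the brighter in both groups, and the fold change of 0.38 was 0.43 and 0.32 within the numbers. By the suffix of its name this probe set may also bind related transcripts, and the mu-class genes are close relatives. A plain Gstm1 probe set gave 0.54, also with groups that overlapped, and a much dimmer tested one gave -0.19. Gstm2 and Gstm5, also of the mu class, were lower on both resistant arrays by small amounts, with fold changes of -0.14 and -0.26. Gstp1 and Gsto1 overlapped between the groups, at -0.12 and -0.10. Gstt1 was too dim to be tested, at 30.9 and 21.1 in the resistant pool and 21.1 and 35.4 in the original population.

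**Figure D2:**
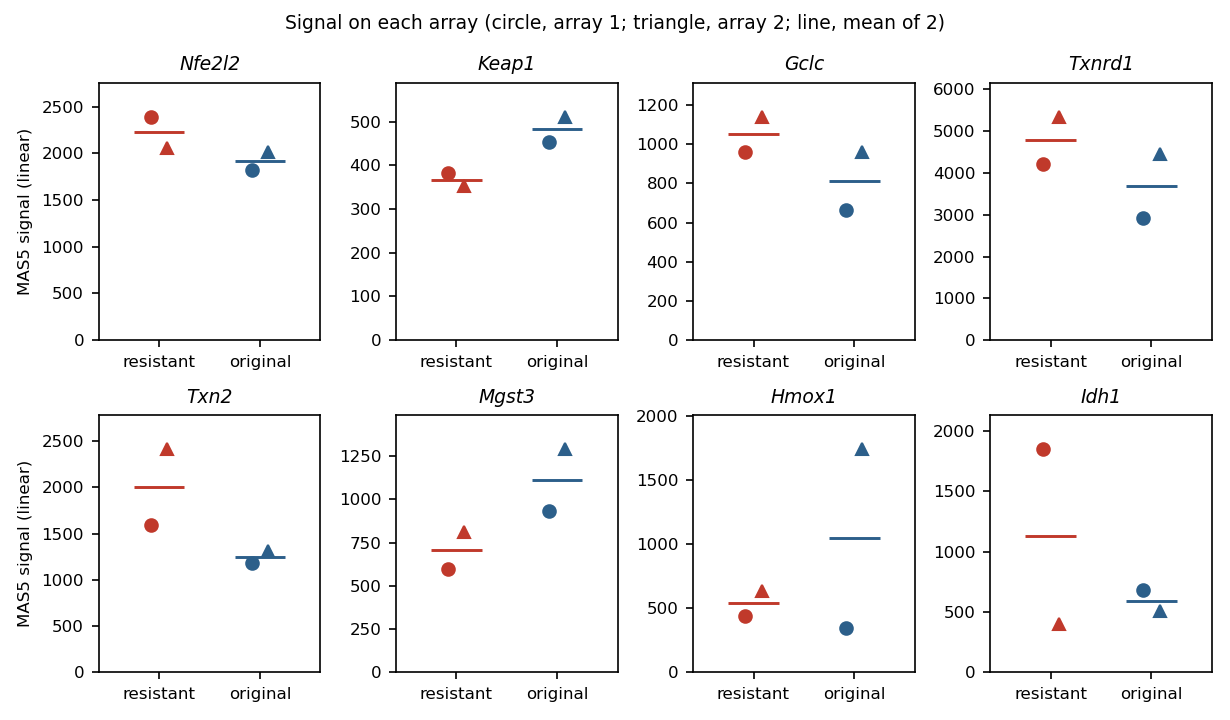
MAS5 signal on a linear scale for 8 members on each array, resistant left of original; circles are arrays numbered 1, triangles arrays numbered 2, and lines the mean of 2. Txn2 is higher and Mgst3 lower on both resistant arrays, while Hmox1 is set by original 2 (1741.7) and Idh1 by resistant 1 (1850.1).

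Read from their brightest probe sets, the thioredoxin genes all had fold changes above 0, but second probe sets of Txn1 and Txnrd2 were below 0. Txn2, which encodes the thioredoxin of mitochondria, had 1591.8 and 2414.9 in the resistant pool, against 1180.2 and 1306.1 in the original population. Both resistant arrays were higher, and the largest value was that of resistant 2. The log2 fold change was 0.66 ± 0.212 (SE; adjusted p = 0.448), with 0.43 for number 1 and 0.88 for number 2, and it ran from 0.36 (without resistant 2) to 0.96 when each array was left out. All 3 probe sets of Txn2 were higher on both resistant arrays, with fold changes of 0.66, 0.48 and 0.54. With the array number as a block the first passed (adjusted p = 0.00195), the second did not (adjusted p = 0.0558) and the third did (adjusted p = 0.0258). Txnrd1, the cytosolic thioredoxin reductase gene and a well-known NRF2 target, had 4207.8 and 5347.6 in the resistant pool, against 2910.6 and 4463.5 in the original population. The groups overlapped, but within each number the resistant array was the higher, by 0.53 and 0.26. Its log2 fold change of 0.39 ± 0.222 (SE; adjusted p = 0.774) passed with the block (adjusted p = 0.0456), and it ran from 0.09 (without original 1) to 0.70 (without original 2) when each array was left out. The other 2 Txnrd1 probe sets gave 0.23 and 0.27 and did not pass in either fit.

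The remaining thioredoxin genes differed less. Txnrd2, the mitochondrial reductase that serves Txn2, had 166.2 and 177.6 in the resistant pool and 156.2 and 144.2 in the original population, but a second probe set turned the other way, at 125.4 and 111.9 in the resistant pool and 145.3 and 125.3 in the original population. Txn1, the cytosolic thioredoxin gene, had a fold change of 0.07, with a 95% interval from -0.31 to 0.46. A much dimmer second Txn1 probe set gave -0.23. The peroxiredoxins, which use thioredoxin to remove peroxides, were represented by Prdx2 of the cytosol, Prdx3 of mitochondria and Prdx4 of the endoplasmic reticulum, with fold changes of 0.10, 0.04 and 0.14. All 3 overlapped between the groups and were brighter on array 2 than on array 1 in both groups. Prdx1 had no value, because its 5 probe sets are also assigned to Gm21399, and Prdx5, Prdx6 and G6pdx were not analysed here.

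Superoxide dismutases and catalase, which remove superoxide and hydrogen peroxide, showed no separation. Sod1, of the cytosol, had 2822.4 and 2755.2 in the resistant pool and 2747.8 and 2980.4 in the original population. Sod2, of mitochondria, had 1433 and 1304.5 in the resistant pool and 1115.1 and 1319.4 in the original population, with a fold change of 0.17; its second tested probe set gave 0.35 with groups that did not overlap. Cat had 745.9 and 805.7 in the resistant pool, between the 606.4 and 1051.9 of the original population. Its 2 probe sets had fold changes of -0.04 and 0.10, and original 2 was the brightest array in both.

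Of the genes that supply NADPH, those of the pentose phosphate pathway were close between the groups. Taldo1 was slightly higher on both resistant arrays (2188.1 and 2337.8, against 2088.7 and 2046.1 in the original population), while Pgd and Tkt overlapped, with fold changes of 0.10 and -0.01. Me1, the cytosolic malic enzyme gene, had a fold change of 0.07, with a 95% interval from -0.30 to 0.45. Idh1, the cytosolic isocitrate dehydrogenase gene, had 1850.1 and 403 in the resistant pool, against 681.1 and 508.4 in the original population. Resistant 1 was the highest and resistant 2 the lowest of the 4 arrays, and a second probe set had the same order, with 994.8 and 168.1 in the resistant pool and 389.6 and 252.5 in the original population. The fold change was 1.44 for number 1 and -0.33 for number 2. Without resistant 2 the gene passed as higher (1.65, limma adjusted p = 0.00498), but the resistant pool is then the single high array, assumed to vary as the original arrays and the other probe sets do. Over the 4 ways of leaving out an array the fold change ran from -0.54 to 1.65. Among the 6 tested fibroblast markers, Pdgfra, Pdgfrb and Col3a1 were also brightest on resistant 1, while Col1a1 was brightest on resistant 2, Dcn on original 1 and Col1a2 on original 2.

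The metallothioneins, which bind zinc and copper and scavenge oxidants, overlapped between the groups. Mt1 had 1014.2 and 828.2 in the resistant pool and 606.6 and 977 in the original population, and Mt2 had 965.8 and 731.1 in the resistant pool and 796.9 and 806.3 in the original population. Their fold changes were 0.25 and 0.07. In both genes the resistant array was the higher for number 1 (0.74 and 0.28) and the lower for number 2 (-0.24 and -0.14). The Mt1 probe set, by its suffix, may also bind related transcripts.

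**Figure D3:**
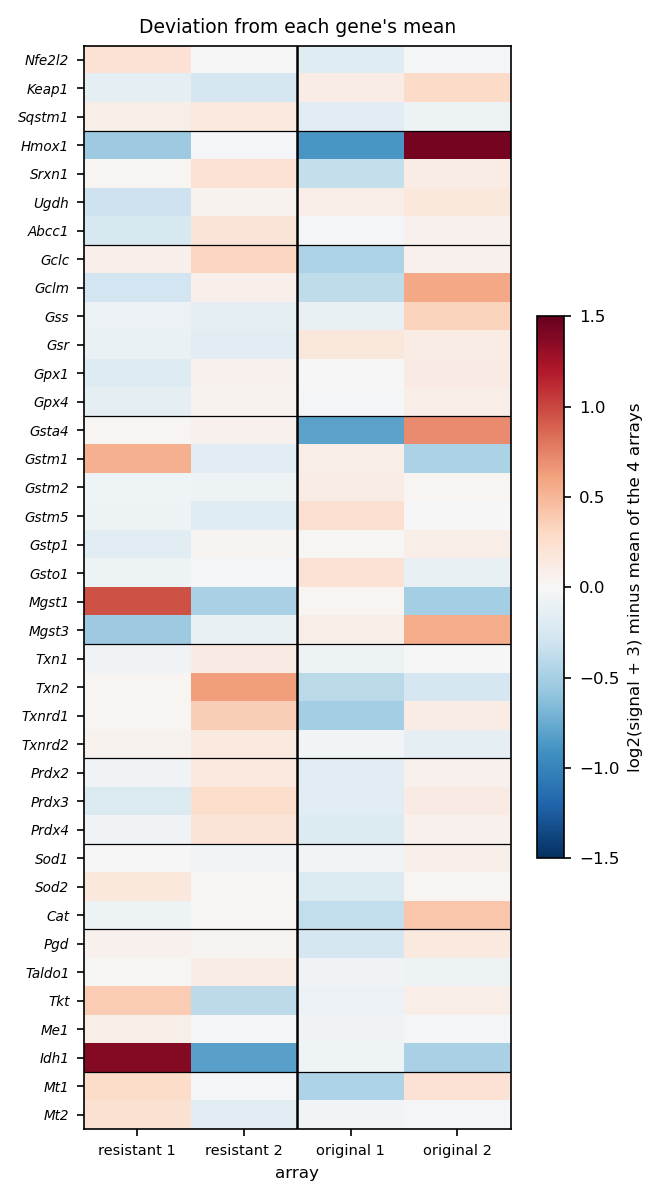
Deviation of log2(signal + 3) from the mean of the 4 arrays for each tested member, resistant arrays left of original ones; horizontal lines part the roles. Among the strongest deviations are Hmox1 on original 2 and Idh1 and Mgst1 on resistant 1, while Gsta4 is low on original 1 and high on original 2.

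More members differed by 1.5-fold between the arrays of a group than between the group means, and the same held over all probe sets. A difference of single arrays varies more than a difference of means of 2, so these counts are not like for like. At least 1.5-fold between the group means were 2 of 38 members, Txn2 and Mgst3 (5.26%, against 7.82% of all probe sets). At least 1.5-fold between the resistant arrays were 5 members (13.2%, against 15.0% of all probe sets, of which 4.48% were brighter and 10.5% dimmer on resistant 2). Of these, Txn2 was brighter on resistant 2, and Gstm1, Mgst1, Tkt and Idh1 were brighter on resistant 1. At least 1.5-fold between the original arrays were 6 members (15.8%, against 13.8% of all probe sets). All 6 of these (Hmox1, Gclm, Gsta4, Txnrd1, Cat and Mt1) were brighter on original 2, and of all probe sets 3.08% were brighter and 10.7% dimmer there by as much. The median of array 2 minus array 1 over the tested members was 0.08 in the resistant pool and 0.14 in the original population, against -0.06 in each over all probe sets. Resistant 2 was the brighter resistant array for 22 of 38 members (57.9%, against 43.6% of all probe sets), and original 2 the brighter original array for 29 of 38 (76.3%, against 42.8%). Members are the brightest probe sets of their genes, while the shares over all probe sets include dimmer ones. The median signal of all probe sets that are not controls was 128.6 on resistant 1 and 114.0 on resistant 2. On original 1 it was 135.2 and on original 2 it was 115.2. Original 2 is also the array with the high 18S ribosomal and poly-A control signals. The part of these facts in the members' values was not tested. Over the tested members the median difference between the groups was 0.12 for number 1 and -0.05 for number 2, and 23 of the 38 members had the same sign in both.

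**Figure D4:**
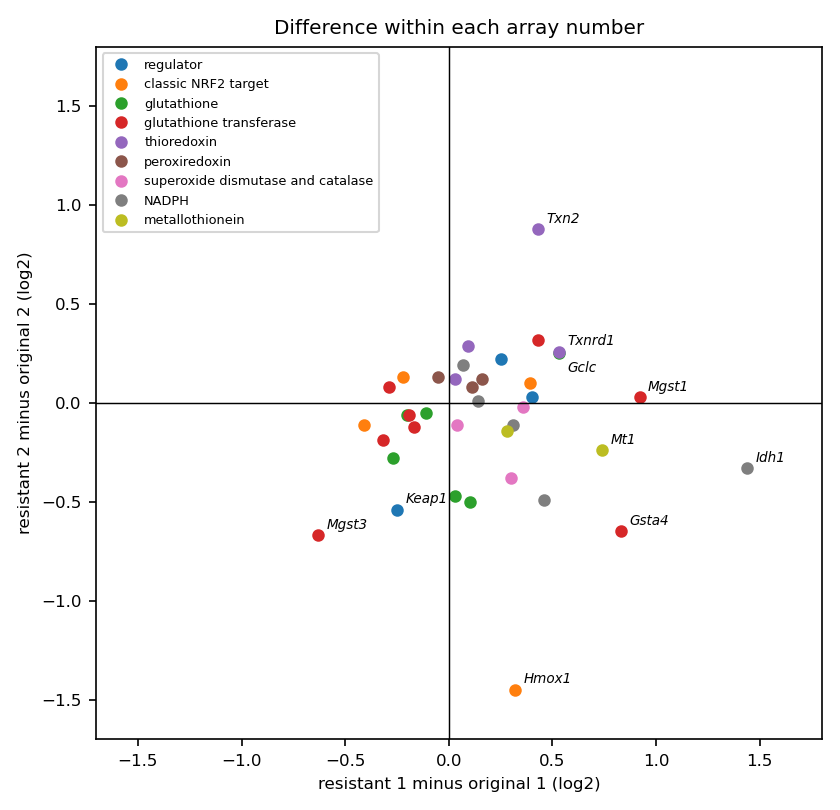
Log2 difference of resistant minus original for each tested member, between arrays numbered 1 (x axis) and between arrays numbered 2 (y axis), coloured by role. Txn2, Txnrd1, Gclc and Mgst3 lie on the same side of 0 for both numbers, whereas Hmox1, Gsta4, Idh1 and Mt1 are above 0 for number 1 and below 0 for number 2.

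The fold changes were also read by whether the promoter window held an ARE core. The 11 tested members with a core had a median log2 fold change of 0.07, with 7 above 0, and the 22 tested members with a promoter and no core had 0.06, with 12 above 0. Hmox1, Gclc, Gsr, Gsta4 and Abcc1 were tested but had no promoter to search, so they are in neither group. Whether genes that NRF2 binds differ was not tested. Among the genes whose stretches are shown, Nfe2l2, Txnrd1, Mgst1, Me1 and Mt2 stood above 0, and Ugdh and Gclm below. Of the other tested members with a core, Srxn1 and Pgd stood above 0, and Gstm5 and Sod1 below. The 3 members that passed with the array number as a block were Txnrd1, with a core in 1 of its 3 promoters, and Txn2 and Mgst3, whose windows held no match.

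Among further genes of the pathway, none passed either. A further list held 85 genes: partners and competitors of NRF2, further targets, and other glutathione and thioredoxin enzymes. Of these, 73 had a probe set of their own and 52 were tested, of which 0 passed (0.169% of all probe sets did) and 3 had an unadjusted p under 0.05. With the array number as a block 3 of the 52 passed, 2 higher and 1 lower (5.77%, against 5.23% of all probe sets). Osgin1, an oxidative stress induced growth inhibitor gene, had 104.2 and 149.5 in the resistant pool, against 33.6 and 64.6 in the original population. Both resistant arrays were higher, with a log2 fold change of 1.36. Original 1 was below the limit of 49.1 for testing, and the gene reached that limit through its resistant signals, so its call with the block is no support for a difference. Txnrd3, the thioredoxin-glutathione reductase gene known from testis, had 276.8 and 311.2 in the resistant pool, against 177 and 169.6 in the original population (0.75 ± 0.252, SE; adjusted p = 0.491, and 0.035 with the block). Sod3, the extracellular superoxide dismutase gene, had 282.4 and 294.5 in the resistant pool, against 651.8 and 342.1 in the original population. It was lower on both resistant arrays (-0.71 ± 0.295, SE; adjusted p = 0.626, and 0.0199 with the block), with most of the difference set by original 1.

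The groups did not overlap in 14 of the 52 pathway genes (26.9%, against 36.0% of all probe sets), 8 higher and 6 lower, of which 5 more are named here. Abcc5 (0.36), an exporter of organic anions, and Oxr1 (0.33), an oxidation resistance gene, were higher on both resistant arrays. Rpia (-0.50), an isomerase of the pentose phosphate pathway, Ggct (-0.33), of glutathione breakdown, and the selenoprotein gene Selenof (-0.31) were lower on both. None of these 5 passed in either fit. The small MAF partners Mafg, Mafk and Maff had fold changes of -0.02, 0.12 and -0.17, the last with a 95% interval from -1.20 to 0.86. The competitors Bach1 and Bach2 had 0.17 and -0.03, and the ligase gene Cul3 had 0.09. Slc7a11, the cystine importer gene, was too dim to be tested, at 16.3 and 18.7 in the resistant pool and 31.6 and 28.7 in the original population. The genes of the last 3 sentences were chosen after their values were seen.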

How the data were processed

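The authors deposited MAS5 signal intensities on a linear scale, 1 per probe set and array, per the submitters' processing notes, which give no version. In the deposited intensities the 2% trimmed mean was 500.2 on every array. Detection calls were not used here, so precision rests on the number of arrays. The 22626 probe sets that are not controls were scaled to 1 trimmed mean, log2(signal + 3) was taken, and a probe set was tested if its mean reached the 40th percentile, which is a signal of 49.1. limma 3.58.1 in R 4.3.3 (lmFit, eBayes with a mean-variance trend) fitted resistant minus original over 13576 probe sets, with two-sided p-values adjusted by Benjamini-Hochberg at 0.05. P-values rest on the spread between these cultures only, which limma pools in part across probe sets.

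Names came from the platform annotation: 20380 probe sets had 1 symbol, 691 several and 1555 none listed; all 40 members matched GRCm38.p6 by gene identifier. Members and lists were chosen with earlier results of these data known. Text gives values for each member, and of the further list for genes that passed and up to 4 per direction whose groups do not overlap.

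Same-numbered arrays deviated together (r = 0.352 across probe sets, which are not independent), and the spiked controls split by number, so the number was also a block. With the block, 1 residual degree of freedom remains and limma estimates the prior ones as infinite: probe sets of similar signal are then given a common variance. A gene's own spread then does not enter its p-value, so a low one does not mean that the numbers agree. Hmox1 (0.32 for number 1 and -1.45 for number 2) had a limma adjusted p of 0.0533 with the block. For Idh1 (1.44 and -0.33) it was 0.0542. The procedure was tested on simulated data in which 200 among 13576 probe sets carried a 2-fold, 4-fold or 8-fold change. It recovered 37.2% of 2-fold, 90.4% of 4-fold and 98.2% of 8-fold changes, and 5.5% of calls were false. The share recovered depends on how many probe sets change and by how much. Alternatives changed the scaling, pseudocount, filter, variance model, block, probe set and arrays.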

Additional observations from a re-analysis of the deposited data

How the results depend on the processing

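The 2 arrays per group limit what can be called, and a 2-fold change was recovered in 37.2% of simulated cases. The simulations held no effect of the array number, and they mixed in 4-fold and 8-fold changes. The adjusted cut-off is stricter where fewer probe sets pass, and 23 passed in the real comparison. The 0 calls among the 38 tested members (2 at an unadjusted p under 0.05) became 3 with the replicate number as a block (2 higher, 1 lower) and 0 to 1 when each array was left out. The single calls were Hmox1 without original 1 and Idh1 without resistant 2, each resting on 1 array in that group. The further pathway list had 0 calls, and 3 with the replicate block. Over all probe sets 23 passed, against 8 with quantile normalisation, 5 with no filter, 10 with a filter at the 60th percentile, 0 without a variance trend (922 at an unadjusted p under 0.05), 710 with the replicate block and 68 to 111 leaving out an array. The median of the members, 0.05, ran from -0.09 (without original 1) to 0.13 when an array was left out. It was -0.08 over the 31 genes with a plain probe set, which are a smaller set of genes.

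Signs of single members turned with the probe set used. With the mean of all probe sets of a gene the log2 fold change was -0.06 for Srxn1, 0.27 for Mgst3 (through its dim second probe set), -0.08 for Txn1, 0.02 for Sod1 and 0.03 for Cat. With the brightest plain probe set it was 0.10 for Cat, -0.08 for Me1 and -0.13 for Mt1 (whose plain probe set was too dim to be tested). Leaving out each array turned the sign of 19 genes. Their ranges were -1.72 to 0.59 for Hmox1, -0.26 to 0.17 for Abcc1, -0.68 to 0.28 for Gclm, -0.45 to 0.01 for Gss, -0.18 to 0.01 for Gpx4, -0.66 to 0.85 for Gsta4, -0.27 to 0.06 for Gsto1, -0.43 to 0.25 for Gstt1, -0.24 to 1.19 for Mgst1, -0.01 to 0.16 for Txn1, -0.02 to 0.21 for Prdx2, -0.20 to 0.28 for Prdx3, -0.10 to 0.02 for Sod1, -0.44 to 0.35 for Cat, -0.10 to 0.30 for Pgd, -0.40 to 0.37 for Tkt, -0.54 to 1.65 for Idh1, -0.09 to 0.59 for Mt1 and -0.13 to 0.27 for Mt2. The cause was not tested.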
